A study of Mus musculus with 40 samples.

Results

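The interleukin-1 family is a set of inflammatory cytokines with shared receptors and dedicated inhibitors. IL-1α and IL-1β act through the receptor IL1R1 with its co-receptor IL1RAP, the receptor antagonist IL1RN occupies the same receptor without signaling, and IL1R2 binds the ligands without signaling and so acts as a decoy. IL-33, IL-18 and IL-36γ are related cytokines with their own receptors, and in the gut wall IL-33 is known as a nuclear cytokine of stromal and epithelial cells that signals through IL1RL1 (ST2). The genes described here were the ligands Il1a, Il1b, Il36g, Il18 and Il33, the antagonist Il1rn, and the receptor genes Il1r1, Il1rap, Il1r2 and Il1rl1. They were taken from the tables by symbol, and all 10 were found among the 45706 genes of the tables, Il36g under its older symbol Il1f9.

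RNA-seq was carried out on 40 libraries in 10 groups of 4, from cells sorted out of colon tumors, blood and healthy colon. Tumor-bearing animals carried floxed Apc alleles (Apc fl/fl) and Cdx2CreERT2, a tamoxifen-inducible Cre recombinase under the promoter of the intestinal gene Cdx2, and had received 25 mg/kg tamoxifen once at 8 to 10 weeks of age, which led to colon adenomas. Their strain label is C57Bl6/Sv129, with a final number that runs on from sample to sample. Their groups were tumor neutrophils, tumor monocytes, tumor epithelial cells, tumor stromal cells, blood neutrophils and blood monocytes. Healthy animals were C57Bl6 mice with neither transgene nor tamoxifen, and gave blood neutrophils, blood monocytes, colon epithelial cells and colon stromal cells. Every comparison of tumor-bearing with healthy mice therefore also compared transgene, tamoxifen and strain label, and these cannot be told apart. By the study's gates, neutrophils were CD45+ CD11b+ MHCII- Ly6G+, monocytes were CD45+ CD11b+ MHCII- Ly6G- with high Ly6C, epithelial cells were EpCAM+ CD45-, and stromal cells were EpCAM- CD45-. The titles of 1 library of blood neutrophils and 3 libraries of healthy blood monocytes each name 2 mice.

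Library totals ranged from 10717873 to 38002939 counts, and mitochondrially encoded genes took between 5.34% and 83.9% of them. Most libraries carried the markers of their gate, with exceptions that touch the results below. In tumor neutrophil replicate 1 the epithelial marker list (10 genes, median over the genes) stood at 79.5% of its level in tumor epithelial cells, against 4.90% to 17.4% in the other 3 replicates, and the neutrophil list at 5.73% of its level in blood neutrophils of tumor-bearing mice, against 39.9% to 52.0%. Tumor stromal replicates 1 and 2 held the epithelial list at 93.9% and 48.4% and the endothelial list at 1.2% and 1.8% of healthy stroma. Tumor stromal replicates 3 and 4 held the endothelial list at 115% and 87.5%, the epithelial list at 19.9% and 12.2% and the neutrophil list at 9.43% and 4.8%. Fibroblast markers were at 1.2% to 4.6% of healthy stroma in all 4 tumor stromal libraries, far below their level in the healthy libraries of the same gate. Healthy colon stromal replicate 4 was the reverse, with fibroblast markers at 180% and endothelial markers at 17%. Healthy epithelial replicate 4 had 83.9% mitochondrial counts.

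Across the 10 groups the family split by cell type. Levels below are RPKM, read counts scaled for gene length and library depth, and they are compared between genes only on this per-length scale. Il1b, Il1rn, Il1r2, Il1rap and Il36g had their highest mean in tumor neutrophils, Il1a in tumor monocytes, Il1r1 and Il33 in healthy colon stroma, Il18 in healthy blood monocytes and Il1rl1 in tumor stroma. For Il1a the first place was without overlap in RPKM, since all 4 tumor monocyte libraries lay above all tumor neutrophil libraries and these above every tumor stromal library. For Il36g all 4 tumor neutrophil libraries likewise lay above every library of blood neutrophils. In the edgeR test given below, the difference of Il1a between tumor neutrophils and tumor monocytes did not reach significance (log2 fold change -0.46 ± 0.56, adjusted p = 0.599). For the other 8 genes the group with the highest mean overlapped the group next in order. In Il18 all neighboring groups in the order overlapped, with group means from 0.311 RPKM in healthy stroma to 5.23 RPKM in healthy blood monocytes. Il1rl1 was low throughout, with 0 to 202 counts per library and a highest group mean of 0.252 ± 0.192 RPKM (SD, n = 4).

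**Figure D1:**
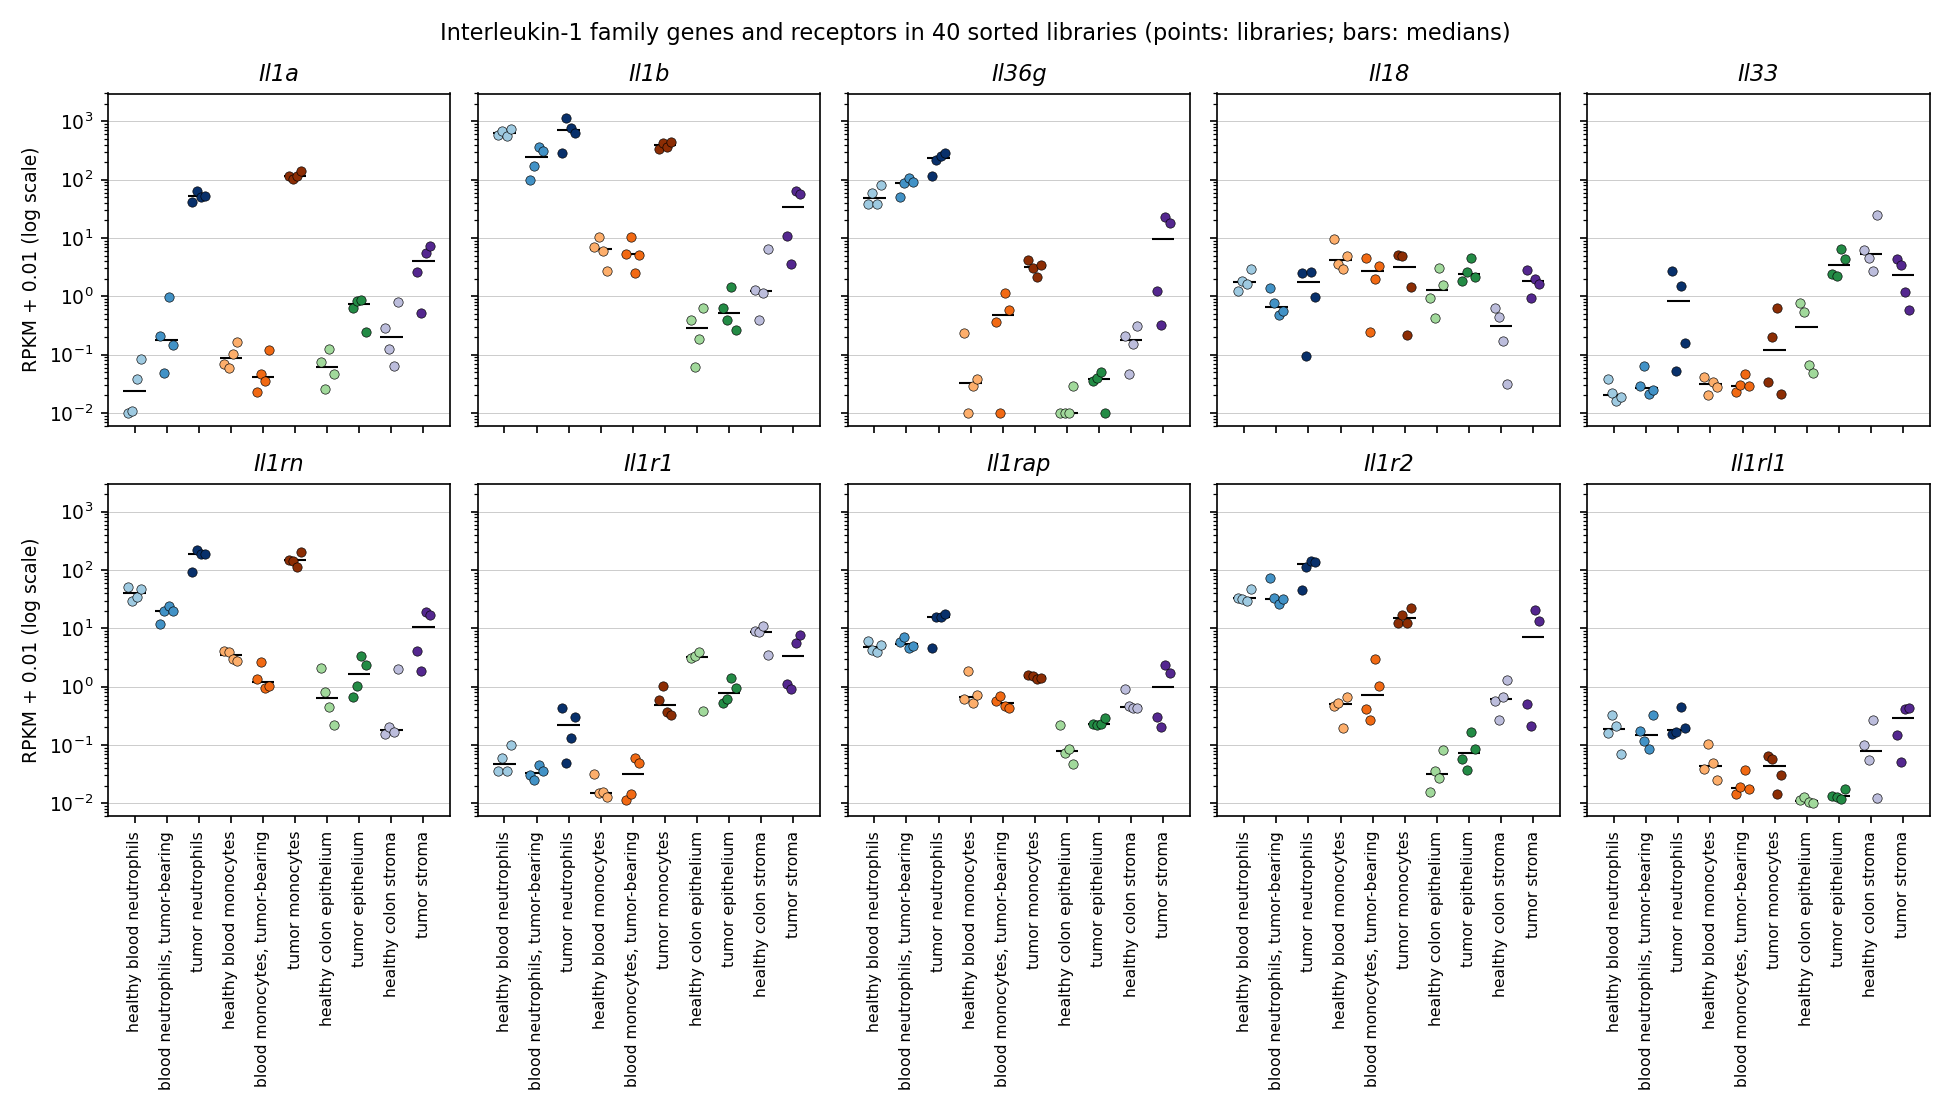
RPKM plus 0.01 (log scale) of each family gene in every library, by cell gate and origin. Points are libraries, bars are group medians, and Il1a in tumor neutrophils (41.4 to 63.2 RPKM) and tumor monocytes (103 to 139 RPKM) stands apart from the remaining 8 groups.

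Il1a and Il1b lie side by side on mouse chromosome 2, on the minus strand, at chr2:129299610-129309972 and chr2:129364570-129371139 (mm10), and Il1rn lies on the plus strand of the same chromosome at chr2:24336853-24351494. The 250 bases before the start of these genes are shown because they are the 3 genes whose blood-to-tumor difference was not the same in monocytes and neutrophils (below). The sequences are from RefSeq (GRCm38.p6), read 5′ to 3′ on the strand of the gene at chr2:129309973-129310222 for Il1a, chr2:129371140-129371389 for Il1b and chr2:24336610-24336859 for the most upstream of 3 listed Il1rn starts. Capitals mark matches to an AP-1 motif (TGANTCA) or a TATA box (TATAAA).
Il1a: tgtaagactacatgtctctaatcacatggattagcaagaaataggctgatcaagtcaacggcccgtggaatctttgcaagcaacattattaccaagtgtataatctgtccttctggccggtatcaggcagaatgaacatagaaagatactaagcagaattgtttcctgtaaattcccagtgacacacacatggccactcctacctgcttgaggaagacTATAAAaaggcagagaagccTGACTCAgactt
Il1b: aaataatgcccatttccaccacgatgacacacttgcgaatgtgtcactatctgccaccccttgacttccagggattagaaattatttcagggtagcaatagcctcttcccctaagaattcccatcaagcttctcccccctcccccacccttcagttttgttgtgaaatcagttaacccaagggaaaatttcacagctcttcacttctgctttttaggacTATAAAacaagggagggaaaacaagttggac
Il1rn: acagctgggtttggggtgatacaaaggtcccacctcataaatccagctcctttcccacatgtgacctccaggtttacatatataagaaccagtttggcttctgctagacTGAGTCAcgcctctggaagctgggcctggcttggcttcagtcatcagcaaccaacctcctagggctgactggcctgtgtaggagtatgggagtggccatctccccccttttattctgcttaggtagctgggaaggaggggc

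The AP-1 motif began at position -12 from the start of Il1a and at -141 from this start of Il1rn, and it was in none of the bases shown for Il1b. The windows before the other listed Il1rn starts (chr2:24345041-24345290 and chr2:24345121-24345370) held no AP-1 motif and no TATA box. The TATA box began at -32 in Il1a and at -31 in Il1b. On both strands, the AP-1 motif occurred in 6.75% and the TATA letters in 12.4% of 32841 mouse promoters of the same length. NF-κB and C/EBP (TTGCNNAA) motifs, which 7.25% and 9.57% of all promoters hold, had no exact match in these windows. The motifs did not overlap each other, and a match is a description of the letters only.

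In monocytes, the comparison of tumor with blood of tumor-bearing mice asked how the cells differ between circulation and tumor. Of the 10 genes, 8 could be tested and 6 were called higher in tumor monocytes, where a call needed an adjusted p below 0.05 together with a log2 fold change beyond 1.5 in either direction (edgeR quasi-likelihood test, Benjamini-Hochberg adjustment across all genes). Over all 15280 genes tested, 11.7% were called, 7.76% higher and 3.89% lower. The 8 genes had a median log2 fold change of 4.38, beside -0.0341 for all genes tested. Il33 and Il1rl1 did not pass the filter on low counts in this comparison, with at most 101 and 24 counts in any library.

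Among the ligands, Il1a was at 0.0132, 0.0371, 0.0255 and 0.112 RPKM in the 4 blood monocyte libraries, which hold 2 to 11 counts, and at 114, 103, 117 and 139 RPKM in the 4 tumor monocyte libraries. Its log2 fold change was 11.57 ± 0.56 (SE, adjusted p = 2.18e-06), a size that rests on the few counts in blood. Il1b, the ligand that needs cleavage by caspase-1 to become active, was at 5.35, 10.6, 2.51 and 5.06 RPKM in blood monocytes and at 339, 419, 367 and 443 RPKM in tumor monocytes. No library of either group came near the other group, and the log2 fold change of Il1b was 6.30 ± 0.44 (SE, adjusted p = 1.22e-05). Il36g was at 0.348, 2.3e-05, 1.12 and 0.569 RPKM in blood and at 4.23, 3.06, 2.16 and 3.38 RPKM in tumor monocytes. These groups did not overlap either, yet Il36g was not called (log2 fold change 2.91 ± 0.95, adjusted p = 0.0613). Without blood monocyte replicate 2, where the gene had 0 counts, Il36g passed (adjusted p = 0.0126). Il18 spread from 0.231 to 4.58 RPKM in blood and from 0.211 to 5.15 RPKM in tumor monocytes, and its log2 fold change of 0.46 ± 0.93 had an adjusted p of 0.783.

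The inhibitors of IL-1 rose as well. Il1rn was at 1.37, 2.64, 0.92 and 1.03 RPKM in blood and at 147, 145, 114 and 206 RPKM in tumor monocytes, a log2 fold change of 6.92 ± 0.42 (SE, adjusted p = 7.22e-06). The decoy receptor Il1r2 was at 0.406, 0.259, 3.00 and 1.03 RPKM in blood and at 12.1, 17.2, 12.5 and 22.2 RPKM in tumor monocytes (log2 fold change 3.99 ± 0.71, adjusted p = 0.0035). Of the receptor chains that signal, Il1r1 was at 0.00136, 0.00464, 0.0502 and 0.0387 RPKM in blood, or 1 to 18 counts, and at 0.576, 1.03, 0.363 and 0.318 RPKM in tumor monocytes (log2 fold change 4.76 ± 0.93, adjusted p = 0.00584). Il1rap was at 0.428 to 0.669 RPKM in blood and at 1.34 to 1.56 RPKM in tumor monocytes (log2 fold change 1.73 ± 0.25, adjusted p = 0.00102). The groups were separate for all 6 called genes, and each of the 6 was also called with any 1 of the 8 libraries left out. How often this holds for called genes in general was not counted. On the log2(RPKM + 1) scale the fold changes of Il1r1 and Il1rap shrank to 0.60 and 0.69 and were no longer called. Epithelial markers were at 16.6% in tumor monocyte replicate 2 and at 0.90% to 3.7% in the other 3, and of the called genes Il1r1 alone had its highest tumor value there (1.03 RPKM). The part of epithelial RNA in that value was not tested.

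In neutrophils the same comparison, tumor against blood of tumor-bearing mice, called 4 of 10 genes, all higher in tumor: Il1a, Il1rn, Il33 and Il1r1. Over the 13674 genes tested 16.3% were called, 11.9% higher, and the median log2 fold change was 1.68 for the 10 and 0.107 for all genes.

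Il1a was at 0.199, 0.0383, 0.948 and 0.136 RPKM in blood neutrophils and at 41.4, 63.2, 51.0 and 53.1 RPKM in tumor neutrophils, with no overlap (log2 fold change 7.4 ± 1.0, adjusted p = 0.00108). Il1rn was at 11.9, 19.9, 24.5 and 19.9 RPKM in blood and at 93.5, 221, 190 and 187 RPKM in tumor neutrophils, also with no overlap (log2 fold change 3.33 ± 0.53, adjusted p = 0.00222). The calls of Il1a and Il1rn were kept with any 1 library left out and in each of the 10 other settings tried. Macrophage markers, at 1.11% to 3.67% of their tumor monocyte level in blood neutrophils, were at 26.3%, 8.87%, 8.15% and 6.89% in tumor neutrophils, and their part in Il1a and Il1rn, both high in tumor monocytes, was not tested. Il1r1 was at 0.0153 to 0.036 RPKM in blood, or 6 to 12 counts, and at 0.426, 0.0386, 0.123 and 0.290 RPKM in tumor neutrophils (log2 fold change 2.98 ± 0.79, adjusted p = 0.025). This call was lost without blood neutrophil replicate 1 (adjusted p = 0.0864), 2 (0.0906) or 4 (0.0758), or tumor neutrophil replicate 4 (0.0553), and it was kept in 5 of 10 other settings. Il33 was at 0.0189, 0.0549, 0.0107 and 0.0148 RPKM in blood and at 2.67, 0.0423, 1.49 and 0.15 RPKM in tumor neutrophils, so that replicate 2 lay within the range of blood (log2 fold change 5.19 ± 1.21, adjusted p = 0.0144). It was lost without blood neutrophil replicate 4 (adjusted p = 0.0502) and kept in 4 of 9 other settings, being lost with limma-voom (adjusted p = 0.0508), the replicate block (0.107) and limma on log2 RPKM (0.0684 to 0.375). The 2 tumor neutrophil libraries with the most Il33, replicates 1 and 3, were also those with the most epithelial marker signal (79.5% and 17.4%), while replicates 2 and 4 held 12.7% and 4.90%. The part of epithelial RNA in the Il33 values was not tested. In bulk libraries such as these, fewer cells of a type and less RNA per cell cannot be told apart.

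The remaining 6 genes missed the call. Il1b was already high in blood neutrophils, at 98.0, 170, 364 and 312 RPKM, and stood at 291, 1129, 776 and 627 RPKM in tumor neutrophils. These groups overlapped (log2 fold change 1.78 ± 0.66, adjusted p = 0.0869). Il36g was at 50, 86.6, 106 and 89.8 RPKM in blood and at 117, 220, 254 and 285 RPKM in tumor neutrophils. Its groups did not overlap and its adjusted p was 0.0443, but its log2 fold change of 1.5 ± 0.46 did not exceed the limit. Il1r2 was at 71.8, 32.7, 26.6 and 31.4 RPKM in blood and at 46.0, 114, 142 and 136 RPKM in tumor neutrophils (log2 fold change 1.59 ± 0.50, adjusted p = 0.0518). Il1rap was at 4.64 to 7.10 RPKM in blood and at 4.54, 15.7, 15.6 and 17.4 RPKM in tumor neutrophils (log2 fold change 1.43 ± 0.49, adjusted p = 0.0698). In Il1b, Il36g, Il1r2 and Il1rap the lowest tumor value was replicate 1, the library rich in epithelial markers. Without it, 8 of the 10 genes were called higher in tumor neutrophils, among them Il1r2 (log2 fold change 1.90, adjusted p = 0.00645), Il1rap (1.76, adjusted p = 0.00212), Il36g (1.77, adjusted p = 0.00517) and Il1b (2.10, adjusted p = 0.0303). Over all genes 1425 of 14225 were called higher in that fit. Without blood neutrophil replicate 4 the family count was 2, Il1a and Il1rn, and over all genes 1364 of 14991 were called higher. Il18 and Il1rl1 gave adjusted p of 0.515 and 0.633.

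**Figure D2:**
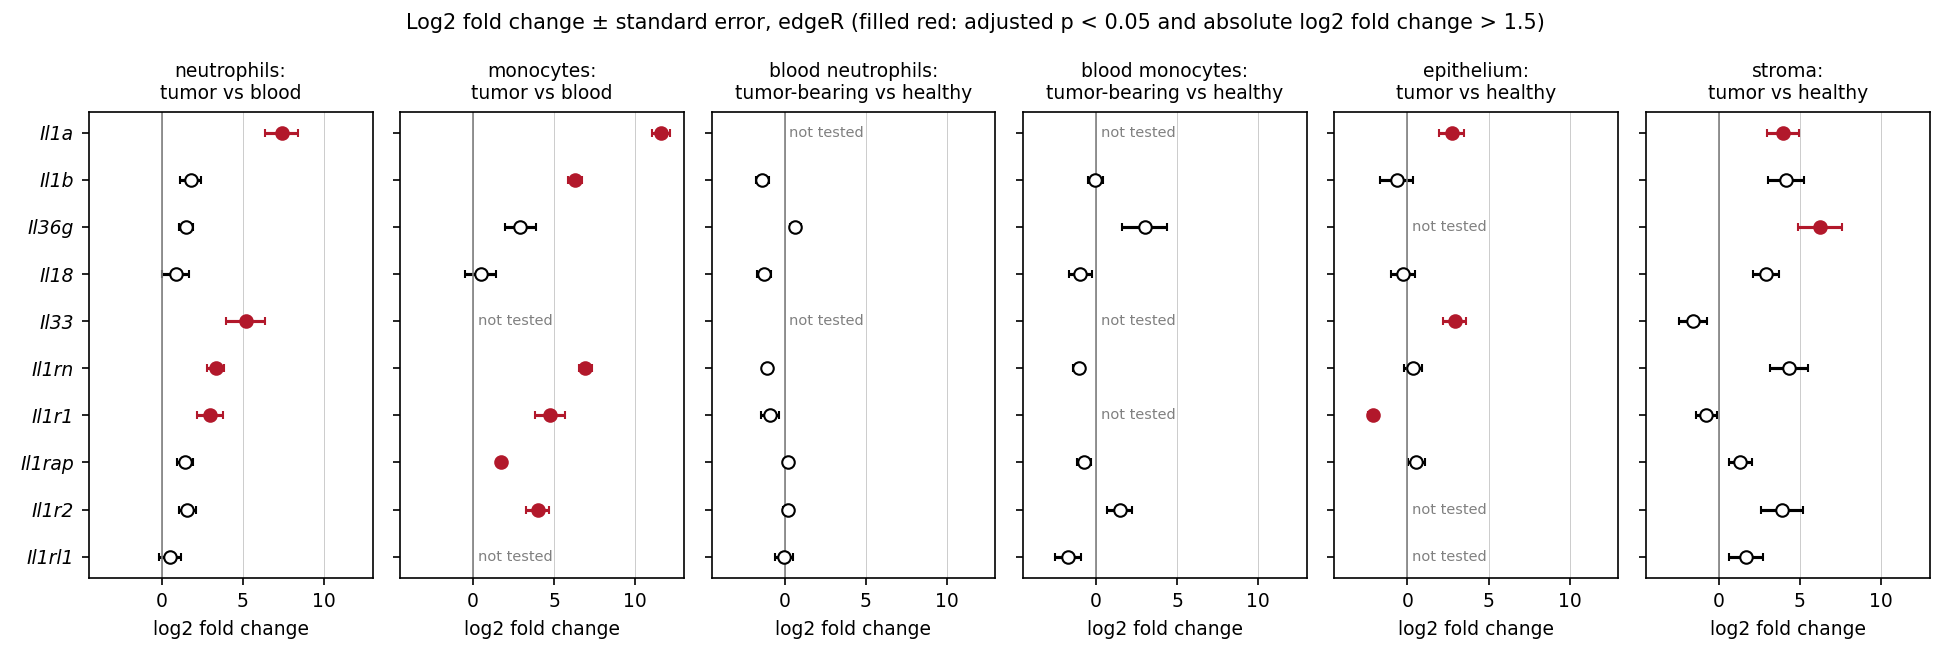
Log2 fold change with its standard error (edgeR) for each family gene in the 6 comparisons of tumor with blood, tumor-bearing with healthy blood, and tumor with healthy colon. Filled red points were called, and the monocyte panel holds the most of them, 6.

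The blood-to-tumor change differed between the cell types for 3 genes. In a fit over the 16 libraries concerned, with the difference between the 2 changes as the tested term, the neutrophil change minus the monocyte change was -4.25 ± 1.04 for Il1a on the log2 scale (adjusted p = 0.0297), -4.63 ± 0.80 for Il1b (adjusted p = 0.00477) and -3.69 ± 0.61 for Il1rn (adjusted p = 0.00383). These were 3 of 10 genes, all lower, against 3.95% of 17465 genes called and 1.23% in that direction, with a median difference of -1.71 for the 10 genes and 0.102 for all. By the titles, some mice gave several of the 16 libraries, and no setting of this test had the mouse as a block. For Il1b and Il1rn the difference was called with any 1 of the 16 libraries left out and in each of the 10 other settings. For Il1a it was called in 6 of those 10 settings and lost in 7 of 16 fits with 1 library left out: without tumor monocyte replicate 1 (adjusted p = 0.0547) or 4 (0.0541), tumor neutrophil replicate 1 (0.0526), blood monocyte replicate 1 (0.0712), 2 (0.0641) or 3 (0.0665), or blood neutrophil replicate 3 (0.0736). Il1r2 had a log2 difference of -2.53 ± 0.87 that missed the threshold (adjusted p = 0.104) and passed it without blood monocyte replicate 3 (adjusted p = 0.0185).

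The starting levels in blood were far apart. In healthy mice 7 of the 8 genes tested were called higher in blood neutrophils than in blood monocytes, against 37.1% of 15033 genes called and 16.7% called in that direction. Monocyte libraries WT13and14 and WT15and16 pool mice that by title also gave the neutrophil libraries, and the fit did not pair them. The median log2 fold change was 3.77 for the 8 genes and -0.0738 for all. Il36g was at 37.9, 59.8, 37.9 and 80.1 RPKM in neutrophils and at 0.222, 0, 0.0186 and 0.0276 RPKM in monocytes (log2 fold change 10.32 ± 0.90, adjusted p = 2.15e-05), where it had 0 to 26 counts. Il1b was at 581, 694, 556 and 725 RPKM in neutrophils and at 6.90, 10.4, 6.04 and 2.65 RPKM in monocytes (log2 fold change 7.41 ± 0.43, adjusted p = 3.17e-06). Il1r2 was at 29.2 to 47.9 RPKM against 0.184 to 0.661 RPKM (log2 fold change 7.07 ± 0.46, adjusted p = 4.97e-06) and Il1rn at 29.1 to 50.3 RPKM against 2.72 to 4.03 RPKM (log2 fold change 4.37 ± 0.26, adjusted p = 3.81e-06). Il1rap, Il1r1 and Il1rl1 had log2 fold changes of 3.17, 3.15 and 2.78, the latter pair at no more than 202 counts in any library. All 7 calls were kept with any 1 library left out, and how often this holds for called genes in general was not counted. Il18 was not called (log2 fold change -0.65 ± 0.45, adjusted p = 0.251), although all 4 neutrophil libraries lay below all 4 monocyte libraries.

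In the tumor, Il36g, Il1rap, Il1rl1 and Il1r2 were called between the cell types, 4 of 10 genes and all higher in neutrophils, against 13.8% of 19026 genes called and 9.82% in that direction. The median log2 fold change was 2.17 for the 10 genes and 0.313 for all, so values here should be read against that shift. Il36g had a log2 fold change of 6.83 ± 1.11 (adjusted p = 0.00124), Il1rap of 3.96 ± 0.70 (adjusted p = 0.00209), Il1rl1 of 3.55 ± 0.87 (adjusted p = 0.0134) and Il1r2 of 3.54 ± 1.00 (adjusted p = 0.0257). With the mouse named in the library title as a block, Il36g (adjusted p = 0.0143) and Il1rap (adjusted p = 0.0297) were called, and Il1rl1 (0.0994) and Il1r2 (0.119) were not. Il1r2 was also lost without tumor monocyte replicate 1 (0.0709), 2 (0.0547), 3 (0.0681) or 4 (0.0553), or tumor neutrophil replicate 2 (0.0577). For Il1a all 4 tumor neutrophil libraries lay below all 4 tumor monocyte libraries, yet the log2 fold change was -0.46 ± 0.56 (adjusted p = 0.599). Il1b and Il1rn overlapped between the cell types, with log2 fold changes of 1.66 ± 0.72 (adjusted p = 0.124) and 0.94 ± 0.60 (adjusted p = 0.295). Whether the cell types differed by unequal amounts in tumor and in healthy blood was not tested, since the fit of both changes above used blood of tumor-bearing mice.

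Ratios within a library do not depend on library size. Il1rn to Il1b, the antagonist over its ligand, was 0.042 to 0.0865 in healthy blood neutrophils, 0.0638 to 0.121 in blood neutrophils of tumor-bearing mice and 0.196 to 0.322 in tumor neutrophils, with all tumor libraries above all blood libraries. In monocytes the same ratio was 0.37 to 1.03 in healthy blood, 0.204 to 0.367 in blood of tumor-bearing mice and 0.31 to 0.466 in tumor. The tumor range overlapped both blood ranges, and all healthy blood libraries lay above all blood libraries of tumor-bearing mice. Il1r2 to Il1r1, the decoy over the signaling receptor, was at least 108 in every neutrophil library and 16.7 to 299 in the monocyte libraries. Both epithelial groups and healthy stroma had ratios of 0.00176 to 0.368, so there the signaling receptor was the more abundant transcript. These ratios are descriptions with no test, and Il1r1 had as little as 1 count in some blood monocyte libraries.

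**Figure D3:**
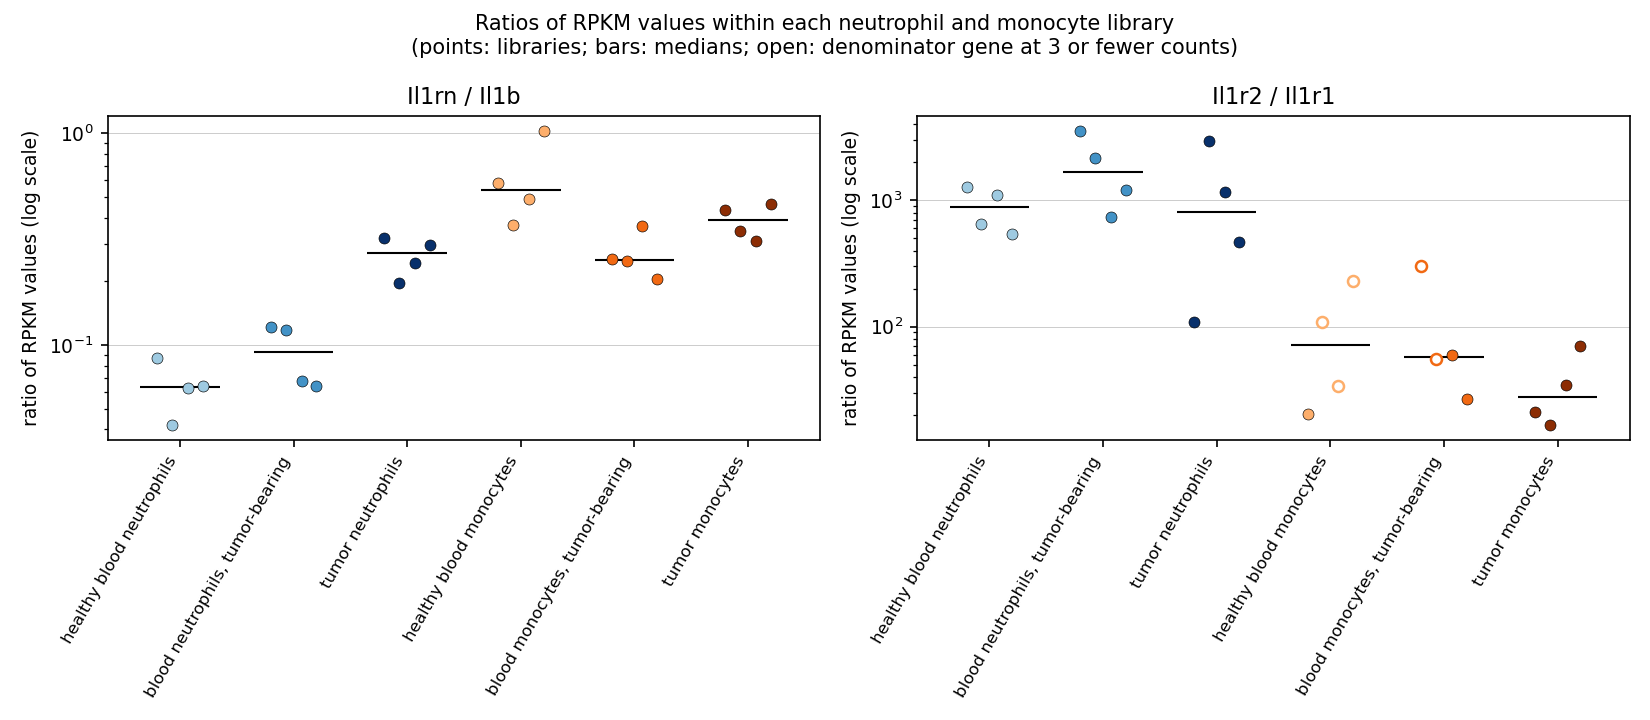
Ratio of RPKM values of Il1rn to Il1b and of Il1r2 to Il1r1 (log scale) in each neutrophil and monocyte library. Points are libraries, bars are group medians, open points are libraries in which the denominator gene had 3 or fewer counts, and Il1rn to Il1b rises from a median of 0.0637 in healthy blood neutrophils to 0.271 in tumor neutrophils.

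Blood cells of tumor-bearing and healthy mice were compared to see whether the family differs before the cells reach the tumor. In blood neutrophils 0 of the 8 genes tested were called, against 4.01% of 13360 genes, and 3 of the 8 had an unadjusted p under 0.05. The share of all genes with an unadjusted p under 0.05 is not given, here or for such counts below. The median log2 fold change was -0.486 for the 8 and -0.00722 for all genes. The blood libraries of tumor-bearing mice are the same ones that served above as the reference for tumor cells, so the comparisons are not independent. Il1b was at 581, 694, 556 and 725 RPKM in healthy and at 98.0, 170, 364 and 312 RPKM in tumor-bearing mice, without overlap, but the log2 fold change of -1.36 ± 0.39 missed the threshold (adjusted p = 0.0644). Il1rn was at 50.3, 29.1, 35 and 46.7 RPKM in healthy and at 11.9, 19.9, 24.5 and 19.9 RPKM in tumor-bearing mice, also without overlap (log2 fold change -1.05 ± 0.29, adjusted p = 0.0613). Il18 had a log2 fold change of -1.27 ± 0.45 (adjusted p = 0.125). Il1b was called with limma-voom (log2 fold change -1.6, adjusted p = 0.0331) and without blood neutrophil replicate 3 of the tumor-bearing mice (-1.7, adjusted p = 0.0333). Neutrophil markers moved between these groups too, standing at 66.4% to 121% in tumor-bearing and 10.8% to 26.8% in healthy mice, and their part in the values of Il1b and Il1rn was not tested.

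In blood monocytes 0 of the 7 genes tested were called, against 0.209% of 15313 genes, and 1 of the 7 had an unadjusted p under 0.05 (median log2 fold change -0.719 for the 7 and 0.0203 for all genes). That gene was Il1rn, at 2.72 to 4.03 RPKM in healthy and 0.92 to 2.64 RPKM in tumor-bearing mice (log2 fold change -1.07 ± 0.35, adjusted p = 0.314). DESeq2 called 0 of the genes in either blood comparison.

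In the epithelium, tumor was compared with healthy colon. Of 7 genes tested 3 were called, against 15.4% of 16085 genes: Il1r1 was lower in tumor (7.88% of all genes called lower), and Il33 and Il1a were higher (7.52% called higher). The median log2 fold change was 0.323 for the 7 genes and -0.0107 for all genes. Il1r1 was at 3.15, 3.31, 3.90 and 0.373 RPKM in healthy and at 0.504, 0.598, 1.39 and 0.929 RPKM in tumor epithelium. The 0.373 RPKM came from replicate 4, in which 83.9% of counts were mitochondrial, and it alone lay inside the tumor range. The log2 fold change of Il1r1 was -2.11 ± 0.30 (adjusted p = 0.000639), and it was called with any 1 library left out (highest adjusted p = 0.00365). On the log2(RPKM + 1) scale it was -0.86 and not called (adjusted p = 0.13), nor was it on the log2(RPKM + 0.1) scale (-1.26, adjusted p = 0.211).

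Il33 was at 0.744, 0.519, 0.0559 and 0.0376 RPKM in healthy and at 2.44, 2.17, 6.35 and 4.28 RPKM in tumor epithelium, with no overlap (log2 fold change 2.91 ± 0.69, adjusted p = 0.0118). Its call was kept with any 1 library left out and in each of the 10 other settings. Il1a was at 0.0634, 0.0153, 0.115 and 0.0367 RPKM in healthy and at 0.625, 0.808, 0.854 and 0.236 RPKM in tumor epithelium (log2 fold change 2.72 ± 0.75, adjusted p = 0.025). The groups did not overlap, but the healthy libraries held only 2 to 10 counts. The Il1a call was lost without tumor epithelial replicate 1 (adjusted p = 0.0622), 2 (0.063) or 3 (0.0558), or healthy epithelial replicate 3 (0.0542). Macrophage markers were at 1.6% to 6.6% of tumor monocytes in tumor epithelium and 0.4% to 1.1% in healthy epithelium, and their part in Il1a was not tested. Il1rap lay at 0.213 to 0.282 RPKM in tumor and 0.0378 to 0.209 RPKM in healthy epithelium and was not called (log2 fold change 0.55 ± 0.51, adjusted p = 0.487). Il1b, Il1rn and Il18 gave adjusted p of 0.701, 0.736 and 0.84. Il36g, Il1r2 and Il1rl1 did not pass the filter. Il36g had 0 to 6 counts and Il1rl1 0 to 5 counts in any epithelial library.

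Tumor stroma held the least uniform libraries, and the levels of several family genes were split between replicates in the same way as the markers. Il36g and Il1a were called higher than in healthy stroma, 2 of 10 genes against 8.4% of 19081 genes called and 3.39% called higher, with a median log2 fold change of 3.4 for the 10 genes and 0.0269 for all. Il36g was at 1.21, 0.312, 23.2 and 17.8 RPKM in tumor and at 0.196, 0.0361, 0.140 and 0.297 RPKM in healthy stroma (log2 fold change 6.25 ± 1.37, adjusted p = 0.0255). Il1a was at 2.55, 0.513, 5.45 and 7.15 RPKM in tumor and at 0.272, 0.113, 0.0548 and 0.796 RPKM in healthy stroma (log2 fold change 3.93 ± 0.99, adjusted p = 0.0408). Tumor replicates 3 and 4 were the high libraries for both genes.

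Il1b was at 10.8, 3.53, 65.1 and 56.3 RPKM in tumor and at 1.29, 0.383, 1.15 and 6.41 RPKM in healthy stroma (log2 fold change 4.14 ± 1.12, adjusted p = 0.0519). Il1rn was at 4.07, 1.82, 18.7 and 16.8 RPKM in tumor and at 0.147, 0.191, 0.154 and 1.98 RPKM in healthy stroma (log2 fold change 4.31 ± 1.16, adjusted p = 0.05, not under the threshold). Il1r2 was at 0.5, 0.203, 20.5 and 13.5 RPKM in tumor and at 0.262 to 1.31 RPKM in healthy stroma (log2 fold change 3.90 ± 1.30, adjusted p = 0.0968). In each of these genes replicates 3 and 4, which also held the neutrophil markers at 9.43% and 4.8% against 0.28% and 0.09% in replicates 1 and 2, were the high pair. Macrophage markers were at 20.5% to 43.3% of tumor monocytes in tumor stroma and 2.87% to 22.0% in healthy stroma. The part of neutrophil or macrophage RNA in the stromal values was not tested.

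With the pair of libraries rich in epithelial markers left out, 6 genes were called higher in tumor stroma: Il1r2, Il1rap, Il36g, Il1rn, Il1a and Il1b. Over all genes 561 of 20786 were called higher in that fit, beside 646 of 19081 with all libraries. With the pair rich in neutrophil markers left out, Il1r1 was the 1 gene called, and it was lower in tumor (log2 fold change -2.57, adjusted p = 0.0095). Over all genes 4143 of 21480 were called in this second fit, 2716 of them lower. With all libraries Il1r1 stood at 1.10, 0.908, 5.58 and 7.53 RPKM in tumor and 8.97, 8.58, 10.9 and 3.55 RPKM in healthy stroma (log2 fold change -0.77 ± 0.65, adjusted p = 0.507). Il33 went the other way along the replicates, with 4.42, 3.46, 1.17 and 0.569 RPKM in tumor and 6.15, 4.45, 2.69 and 25.2 RPKM in healthy stroma (log2 fold change -1.61 ± 0.87, adjusted p = 0.288). The highest healthy value came from replicate 4, the library rich in fibroblast markers. No family gene was called without healthy stromal replicate 1, 2 or 3, 5 were called without healthy replicate 4, and Il36g alone without tumor replicate 1, 3 or 4. Over all genes 876, 827 and 1115 were called without healthy replicate 1, 2 and 3, and 1712 without healthy replicate 4. Without tumor replicate 1, 3 and 4 they were 1080, 1305 and 1761.

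**Figure D4:**
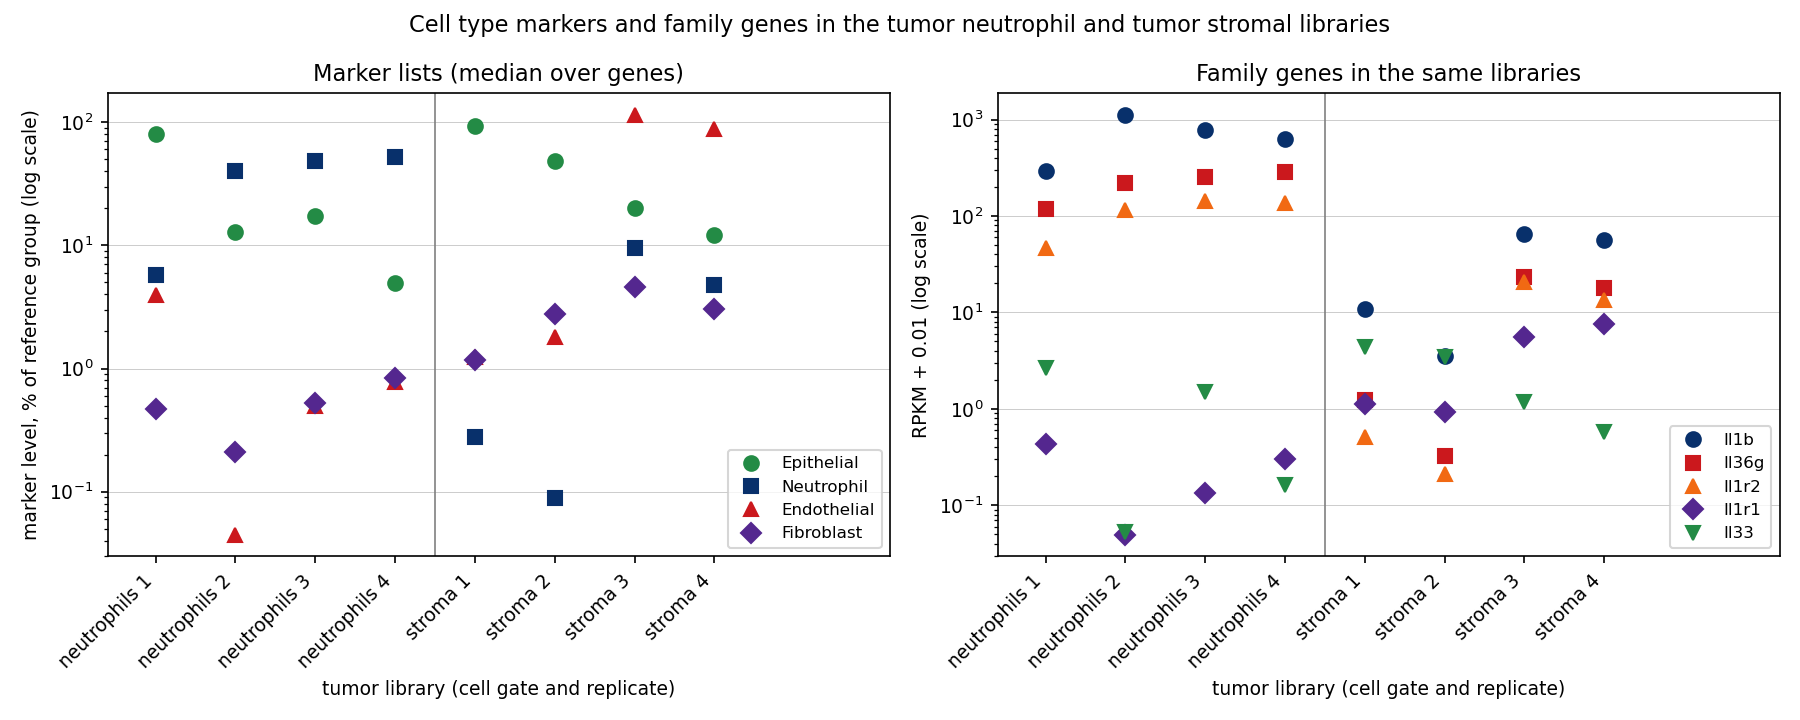
Left, marker lists as a percentage of their reference group (log scale, median over the genes of a list) in the 4 tumor neutrophil and 4 tumor stromal libraries. Right, RPKM plus 0.01 (log scale) of 5 family genes in the same libraries, where Il1b, Il36g and Il1r2 in stroma are high in replicates 3 and 4, the pair with neutrophil markers at 9.43% and 4.8%.

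Within tumors, 6 of 10 genes were called lower in epithelial than in stromal cells, against 4.09% of 19026 genes called and 4.08% in that direction (median log2 fold change -2.52 for the 10 and 0.00597 for all): Il36g (log2 fold change -8.75 ± 1.27, adjusted p = 0.00389), Il1r2 (-6.78 ± 1.18, adjusted p = 0.00523), Il1rl1 (-5.93 ± 1.00, adjusted p = 0.00439), Il1b (-5.65 ± 0.86, adjusted p = 0.00414), Il1rn (-2.53 ± 0.63, adjusted p = 0.0324) and Il1a (-2.51 ± 0.59, adjusted p = 0.0233). The size for Il36g and Il1rl1 rests on 0 to 6 counts in the epithelial libraries. Without the stromal pair rich in neutrophil markers Il36g was the 1 gene called, and without the pair rich in epithelial markers 8 were. Over all genes, 21 of 20236 were called in the first of these fits and 2207 of 20929 in the second. With all libraries 779 of 19026 were called. The calls of Il1a and Il1rn held in 2 of the 8 fits with 1 library left out, those without stromal replicate 1 or 2. The 6 fits without stromal replicate 3 or 4 or any 1 epithelial library lost them, at adjusted p up to 0.1 for Il1a and 0.119 for Il1rn. Il33 and Il18 had log2 fold changes of 0.59 ± 1.06 and 0.62 ± 0.83 (adjusted p = 0.989 for both).

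Genes around the family were described from 3 lists. Among 11 other family genes, Il36a, Il36rn and Il1rl2 were called higher in tumor than in blood neutrophils, 3 of 6 tested against 11.9% of all genes. Il36a, another IL-36 ligand, had 0 or 1 count in each blood neutrophil library and 33 to 175 in tumor neutrophils, at least 28.4-fold higher against a floor of 3 counts per library. Il36rn, the IL-36 receptor antagonist, had a log2 fold change of 5.18 ± 1.16 (adjusted p = 0.0117), and Il1rl2, the IL-36 receptor, of 4.69 ± 1.10 (adjusted p = 0.0149) at 14 to 110 counts in tumor neutrophils. In tumor against blood monocytes 0 of 5 other family genes tested were called by edgeR, against 11.7% of all genes, with 1 at an unadjusted p under 0.05 and 1 called by DESeq2. The chains of the IL-18 receptor, Il18r1 and Il18rap, were higher in neutrophils than in monocytes, with log2 fold changes of 3.24 ± 0.59 and 5.37 ± 0.82 in healthy blood (adjusted p = 0.00145 and 0.000534) and of 7.0 ± 1.6 and 4.43 ± 1.27 in tumors (adjusted p = 0.00956 and 0.0283). Over the alternatives the adjusted p rose to 0.204 for Il1rl2, and for Il18r1 to 0.0632 in blood and 0.0855 in tumors, and for Il18rap to 0.113 in tumors.

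Of 12 genes that process and release the ligands, 4 were called higher in tumor neutrophils (Nlrp6, Nlrc4, Nlrp3 and Mefv), against 11.9% of all genes, and 3 in tumor monocytes (Nlrp3, Mefv and Casp4), against 7.76%, with none lower. Epithelial markers were at 4.90% to 79.5% in tumor neutrophils and 0.0523% to 0.102% in blood neutrophils of tumor-bearing mice. The part of epithelial RNA in the neutrophil calls was not tested. Nlrp3, the sensor of the inflammasome that activates caspase-1, was at 10.4 to 27.9 RPKM in blood and 64.5 to 209 RPKM in tumor neutrophils (log2 fold change 3.11 ± 0.62, adjusted p = 0.00638). In monocytes it was at 4.79 to 5.94 RPKM in blood and 46.4 to 53.3 RPKM in tumor (log2 fold change 3.5 ± 0.18, adjusted p = 2.18e-06). In tumor epithelium 5 of 11 tested were called lower, against 7.88% of all genes, and none higher, among them Nlrp6 (log2 fold change -3.67 ± 0.33, adjusted p = 5.02e-05), the protease gene Casp1 (-3.64 ± 0.28, adjusted p = 2.81e-05) and Pycard (-3.32 ± 0.27, adjusted p = 3.68e-05), which encodes the inflammasome adaptor ASC. Of 16 signaling genes, Irak2 was higher in tumor neutrophils (log2 fold change 3.89 ± 0.50, adjusted p = 0.000889) and tumor monocytes (3.14 ± 0.21, adjusted p = 7.5e-06), and Irak3, a kinase-like inhibitor of the pathway, in tumor neutrophils (2.45 ± 0.35, adjusted p = 0.00124). Tab1 was lower in tumor monocytes (-2.11 ± 0.59, adjusted p = 0.0316) and Myd88, the adaptor of the receptors, in tumor epithelium (-1.73 ± 0.53, adjusted p = 0.0385). The other 12 signaling genes were called in none of these 3 comparisons. The calls were 2 of 15 tested in neutrophils, both higher, against 11.9% of all genes called higher. Among the 16 tested in monocytes 1 was higher and 1 lower, against 7.76% and 3.89%. For epithelium 1 of 16 was lower, against 7.88%. Over the alternatives, left-out libraries included, the adjusted p rose to 0.335 for Nlrp6 and 0.333 for Nlrc4 in neutrophils, to 0.107 for Tab1, and in epithelium to 0.529 for Myd88, 0.111 for Pycard, 0.0769 for Nlrp6 and 0.0555 for Casp1. Those of Nlrp3, Mefv, Casp4, Irak2 and Irak3 in tumor against blood stayed under 0.05.

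The genes most alike in pattern were found by Pearson's r of log2(RPKM + 1) over the 40 libraries, among 10976 genes. The libraries share groups and depth, so r is a description. Il36g was closest to Hdc (r = 0.988) and Fpr1 (r = 0.984), Il1r2 to Clec4d (r = 0.984), Il1b to Slpi (r = 0.969), Il1rn to Cd80 (r = 0.955) and Il1a to Hilpda (r = 0.946). Il1r1 was closest to Plpp1 (r = 0.952), Il33 to Fxyd6 (r = 0.954) and Il1rap to Ankrd33b (r = 0.955). For Il1rl1 and Il18 the closest genes, Stat4 (r = 0.769) and Tec (r = 0.717), were less alike. Il1a, Il1b, Il18 and Il1rap overlap an annotated gene on the other strand (Gm14023, Il1bos, Bco2 with Tex12, and Gm20319), Il1r1 overlaps Gm38070 on its own strand and Il1r2 overlaps Gm37347 and Gm16894. Whether counting used strand was not given in the sources used here, so reads of these pairs may not be told apart.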

How the data were processed

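RNA of sorted cells had been amplified (NuGEN Ovation), sequenced on an Illumina HiSeq and mapped to mm10; the submitters' notes name Bowtie2, bcl2fastq and limma. The authors deposited estimated counts per gene, of which 99.6% of nonzero values are not whole, and RPKM values; the deposited counts were rounded here, which changed no library total by more than 1105. RPKM were used for levels. Gene IDs were named with GENCODE M21 (45143 of 45706 matched).

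Comparisons used edgeR 4.0.16 (glmQLFit robust, TMM, filterByExpr) in R 4.3.3 on all genes with Benjamini-Hochberg adjustment, 4 libraries a group; calls needed adjusted p under 0.05 and absolute log2 fold change above 1.5. Alternatives used DESeq2 1.42.0, limma 3.58.1 (voom, and log2 RPKM with a pseudocount of 1 or 0.1), other filters, blocks and left-out libraries. The edgeR script was tested on simulated data with 200 changed genes. Named pathway genes were taken from the called ones with the largest change, at most 4 per direction, and not all of these are named. The genes and lists were chosen with earlier results of these data known, and the TATA motif after the sequences were seen. Nothing says whether replicates were separate animals beyond the mouse named in each title, so p-values measure the spread between libraries. By the titles, some mice gave libraries to both groups of a comparison, and the main fits did not pair these. Mouse T5 did so in tumor against blood neutrophils, and mouse T17 in tumor against blood monocytes. Mice T3, T4 and T5 gave both tumor neutrophils and tumor monocytes, and T1 and T2 both tumor epithelial and tumor stromal cells. The test of the neutrophil against monocyte change used several libraries each of T3, T4, T5, T9 and T17. Marker percentages are medians over a list's genes of RPKM relative to the mean of the reference group.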

Additional observations from a re-analysis of the deposited data

Results flagged for a closer look

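A library whose gap to the nearest other library of its group exceeded Dixon's 95% critical value for 4 samples was found in 12 of 100 gene and group pairs, where chance gives about 1 in 20. Healthy colon stromal replicate 4, the library rich in fibroblast markers, was high for Il33 at 25.2 RPKM (others 2.69 to 6.15), Il1b at 6.41 RPKM (others 0.383 to 1.29) and Il1rn at 1.98 RPKM (others 0.147 to 0.191). Healthy stromal replicate 1 was high for Il1rap at 0.9 RPKM (others 0.415 to 0.462). Tumor neutrophil replicate 1, rich in epithelial markers, was low for Il1rap at 4.54 RPKM (others 15.6 to 17.4), and tumor neutrophil replicate 3 was high for Il1rl1 at 0.438 RPKM. Blood neutrophil replicate 1 of tumor-bearing mice was high for Il1r2 at 71.8 RPKM (others 26.6 to 32.7), and tumor epithelial replicate 4 for Il1rap at 0.282 RPKM (others 0.213 to 0.221). Among healthy blood monocytes, replicate 1 was high for Il1r1 at 0.0223 RPKM and for Il36g at 0.222 RPKM, and replicate 2 for Il1rap at 1.84 RPKM. Il36g in healthy epithelial replicate 4 was at 0.0193 RPKM, or 3 counts, with the other libraries at 0.

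The blood-to-tumor change differed between neutrophils and monocytes for Il1a (log2 difference -4.25), Il1b (-4.63) and Il1rn (-3.69) in the edgeR test of that difference given in the report.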

How the results depend on the processing

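Counts of family genes called moved by more than 1.5 times in these settings. Tumor against blood neutrophils gave 2 instead of 4 with limma on log2(RPKM + 1), with or without the filter, on log2(RPKM + 0.1) and with the replicate block, and 2 to 8 with 1 library left out. Blood neutrophils of tumor-bearing against healthy mice gave 1 instead of 0 with limma-voom, the replicate block and the fit of all 40 libraries, and 0 to 1 with 1 library left out. Tumor against healthy epithelium gave 1 instead of 3 on log2(RPKM + 1) with or without the filter. Tumor against healthy stroma gave 6 instead of 2 with DESeq2, in the fit of all 40 libraries and without the pair rich in epithelial markers, 4 on log2(RPKM + 0.1), 1 on log2(RPKM + 1) and without the pair rich in neutrophil markers, 0 on log2(RPKM + 1) without the filter, and 0 to 5 with 1 library left out. Tumor neutrophils against monocytes gave 2 instead of 4 on log2(RPKM + 0.1), on log2(RPKM + 1) without the filter and with the mouse as a block. Tumor epithelium against stroma gave 1 instead of 6 with limma-voom, on log2(RPKM + 1) and without the pair rich in neutrophil markers, and 0 on log2(RPKM + 1) without the filter. The log2(RPKM + 1) scale compresses differences between values below 1 RPKM by construction. Calls over all genes moved with the setting too. In tumor against blood neutrophils they went from 2229 to 680 on log2(RPKM + 1). The replicate block gave 1407 there, and log2(RPKM + 0.1) gave 2115. Tumor neutrophils against monocytes went from 2629 to 901 with the mouse as a block and to 2410 on log2(RPKM + 0.1). DESeq2 gave 2713 in place of 1602 for tumor against healthy stroma, and limma-voom 505 in place of 536 for blood neutrophils. Without the pair rich in neutrophil markers, calls over all genes went from 779 to 21 in tumor epithelium against stroma. In tumor against healthy stroma they went from 1602 to 4143 without the same pair. The cause of these moves was not tested.

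No gene that was called changed sign in any setting run. Uncalled genes did. In epithelium Il1b was at 1.1 with limma-voom, 0.328 on log2(RPKM + 1) with or without the filter, 0.935 on log2(RPKM + 0.1), 0.864 with the replicate block and -1.09 to 1.31 with 1 library left out, and Il18 at 0.819, 0.673, 1.09, 0.393 and -0.652 to 0.762 in the same order. Without the stromal pair rich in neutrophil markers Il1r2 was at -0.604 and Il1rap at -0.769 in tumor against healthy stroma, and Il33 at -0.136 in tumor epithelium against stroma. In the neutrophil against monocyte difference Il1rap was at 0.304 and Il1rl1 at 0.0482 on log2(RPKM + 1) with or without the filter, Il1rl1 at 0.0957 on log2(RPKM + 0.1), and Il18 at -0.0464 with limma-voom and -0.211 to 0.752 with 1 library left out. With 1 library left out, Il18 also spanned -0.012 to 0.866 in tumor against blood monocytes and -1.01 to 0.0351 in tumor neutrophils against monocytes, and in blood of tumor-bearing against healthy mice Il1r2 spanned -0.191 to 0.416 and Il1rl1 -0.622 to 0.201 in neutrophils and Il1b -0.501 to 0.338 in monocytes.

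In each of 9 comparisons the lowest correlation of same-numbered pairs was under 0.1, so the replicate block pairs by number only. In blood monocytes of tumor-bearing against healthy mice all same-numbered pairs were positive, from 0.0839 to 0.251. The numbers do not follow the mice, as T5 gave tumor neutrophil replicate 4 and blood neutrophil replicate 2. Under the replicate block 76 of 88 gene results kept both their sign and their side of the threshold. Leaving out mitochondrial genes and the stromal pairs were alternatives chosen after seeing the data, and the former left the sign and call of 86 of 87 unchanged. Genes with few counts, Il1rl1 everywhere, Il33 and Il1r1 in blood and Il36g in epithelium, have fold changes that depth limits.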
